A study of Mus musculus with 3 samples.

Results

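Foxp3 is the forkhead transcription factor that defines regulatory T cells, which are CD4 T cells that hold immune responses in check. It was followed here as 1 gene of 55536 and through its 10 annotated transcripts of 141862, found by symbol in the deposited tables and read in all 3 libraries. The gene is ENSMUSG00000039521.13, on the plus strand of chromosome X from 7573644 to 7595245 in mouse build mm10. The libraries were made from polyadenylated RNA of regulatory T cells of a male adult mouse aged 4 months. They are technical replicates 1, 2 and 3 of biological replicate 1, and are called libraries 1, 2 and 3 below. They form 1 group, so there is no untreated or mutant group to compare with.

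Every library comes from the strain Foxp3CreERT2 x Rosa26YFP, in which the Foxp3 gene drives a Cre recombinase that tamoxifen activates and the Rosa26 locus carries a fluorescent reporter. Foxp3 is X-linked, so a male that carries the altered allele has no other copy. In the widely used line of this name the Cre cassette sits in the 3′ untranslated region of Foxp3, behind an internal ribosome entry site. The labels do not say how the allele was built or whether tamoxifen was given. The quantified index holds no row for Cre or a fluorescent protein, so no read could be assigned to a cassette. The labels also trace the cells to a bone marrow hematopoietic cell and do not name the organ they were taken from.

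The Foxp3 protein has a zinc finger and a leucine zipper through which it pairs with itself, and a forkhead domain at its C-terminal end that binds DNA. Its gene is read from a promoter ahead of noncoding exons and is kept active by conserved enhancers bound by NFAT, Smad3, STAT5, Runx1 with Cbfb, c-Rel and Ets1. The protein works with partners such as Ikzf4, Runx1 and Foxp1, raising genes such as Il2ra and Ctla4 and holding down cytokine genes such as Il2.

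The sequences shown first are those on which the transcript results turn. The 77-base exon at chrX:7592159-7592235 on the plus strand holds bases 968 to 1044 of the coding sequence and reaches into the code for the forkhead domain. It is in capitals in the first line, between 15 bases of the exons on each side. Foxp3-207, the transcript assigned the most counts, lacks it. Its neighbours then join out of frame, as the second line shows (chrX:7591512-7592705, spliced) with the resulting stop codon in capitals.
Foxp3 exon skipped in Foxp3-207: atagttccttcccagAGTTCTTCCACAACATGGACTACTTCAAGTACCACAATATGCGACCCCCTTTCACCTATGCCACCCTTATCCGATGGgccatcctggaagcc
Foxp3-207 junction and stop: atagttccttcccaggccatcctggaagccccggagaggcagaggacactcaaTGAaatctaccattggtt
Foxp3 promoter, TATA motif: ttttcttctcggTATAAAagcaaagttgtt
The third line is from the RefSeq promoter (GRCm38.p6) of the start at 7579676 (chrX:7579632-7579661, plus strand), with TATAAA in capitals starting 32 bases upstream of that start. On the strand of the gene, TATAAA is found in 8.32% of 32851 RefSeq promoters of the same length, and in 13.6% on either strand. The promoter of the start at 7580483 holds none. The first 2 lines are from GENCODE M21 transcripts on mm10.

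Foxp3 was measured at 27.6, 43.7 and 47.1 TPM in libraries 1, 2 and 3, a mean of 39.4 ± 10.4 (SD, n = 3). TPM is a transcript level scaled by length and library total. Library 1 was low, and libraries 2 and 3 lay close together. By mean TPM, 67.8% of the detected protein-coding genes lay below Foxp3, where detected means 1 TPM or more in every library. The median of the detected protein-coding genes was 20.1 TPM. Foxp3 stood at 8.59% ± 0.968 of the TPM of Cd4, the coreceptor of these cells. It had 13.1%, 13.2% and 12.8% of the TPM of Il2ra, the interleukin-2 receptor alpha chain. By expected counts, the same proportion was 6.02%, 6.91% and 6.11%, highest in library 2. Against Ikzf2, the Ikaros factor Helios, the proportion was 6.96%, 9.36% and 11.5%, and against Cd3e, a CD3 chain of the T cell receptor complex, 1.97%, 3.02% and 3.50%. Both were lowest in library 1.

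The value behind these levels was 345, 464 and 450 expected counts, from gene totals of 9299054, 9188612 and 8284381. Scaled counts, as CPM (counts scaled to the library total) with TMM factors, were 39.0, 48.8 and 53.4. By a chi-square test of homogeneity with Benjamini-Hochberg adjustment over 13071 genes, Foxp3 differed among the libraries (adjusted p = 1.52e-04) and was lowest in library 1. Of all genes tested, 54.3% differed, and 24.0% did so with library 1 lowest, so a difference of this kind was common. Library 1 had 0.800 times the scaled counts of library 2 (exact binomial 95% interval 0.694 to 0.921, exact p = 0.00173, adjusted over the 3 pairs 0.0026). Against library 3 it had 0.730 times (0.633 to 0.842, exact p = 1.05e-05, adjusted 3.15e-05). Libraries 2 and 3 had a ratio of 0.913, with an exact interval of 0.800 to 1.04 that includes 1 (exact p = 0.174, adjusted 0.174). Without library 1, the adjusted p of the chi-square test was 0.375. These intervals cover counting error only, since no molecular identifiers are recorded and PCR copies are not independent molecules. The p-values speak only for differences among these libraries, a technical spread by the labels.

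The markers of the labelled cell type were present: all 6 pan T cell genes were detected, with Cd3e at 1398 ± 50.5 and Cd4 at 454 ± 82.0 TPM. Markers of other cell types moved with library as well. The summed TPM of 6 plasma cell genes was 2011, 231 and 1413, and that of 5 erythroid genes 1681, 9.02 and 1495, so both were lowest in library 2. For 6 pan T cell genes it was 11240, 10340 and 9337, and for 6 B cell genes 2338, 1825 and 1970, with both sums highest in library 1. The T cell genes did not move together. Trac and Trbc2, the constant regions of the T cell receptor chains, were highest in library 1, at 3154, 2844 and 2579 TPM and at 4448, 3985 and 3500 TPM. Cd4 was lowest there, as Foxp3 was, at 360, 511 and 492 TPM, and its scaled counts differed by the chi-square test with Benjamini-Hochberg adjustment (adjusted p = 2.33e-12). The 6 myeloid genes summed to 52.9, 11.2 and 32.1 TPM and the 6 CD8 and cytotoxic genes to 21.4, 21.1 and 32.6. Of these 6 myeloid genes, S100a8, S100a9 and Ngp had 20, 23 and 149 expected counts in library 1. They had only 1, 4 and 1 in library 3 and were listed at 0 in library 2. Lyz2 had 7.27, Csf1r 3.45 and Itgam 0.44 TPM there, and Csf1r was lower in library 1, at 2.07 TPM. In the second set of estimates, described below, S100a8 had 1 and Ngp 3 counts in library 2. The part of these markers in the Foxp3 difference was not tested. The libraries are technical replicates by the labels. In such bulk samples fewer regulatory T cells, less Foxp3 RNA per cell and a technical difference between libraries cannot be told apart.

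The tables did not give Foxp3 the same level. The posterior mean TPM of the same table was 23.7, 36.3 and 37.8, with deposited intervals of 21.1 to 26.5, 32.7 to 40.0 and 34.1 to 41.5 whose level is not stated. The deposited TPM lay above the upper bound in each library. The second transcript table, made from the reads and an index, gave 17.5, 29.2 and 30.1 TPM (25.6 ± 7.01), with more estimated counts, 537, 688 and 653. Library 1 was lowest in each of these. On the second table's counts the chi-square test with Benjamini-Hochberg adjustment gave an adjusted p of 0.0044, with 47.9% of genes called.

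**Figure D1:**
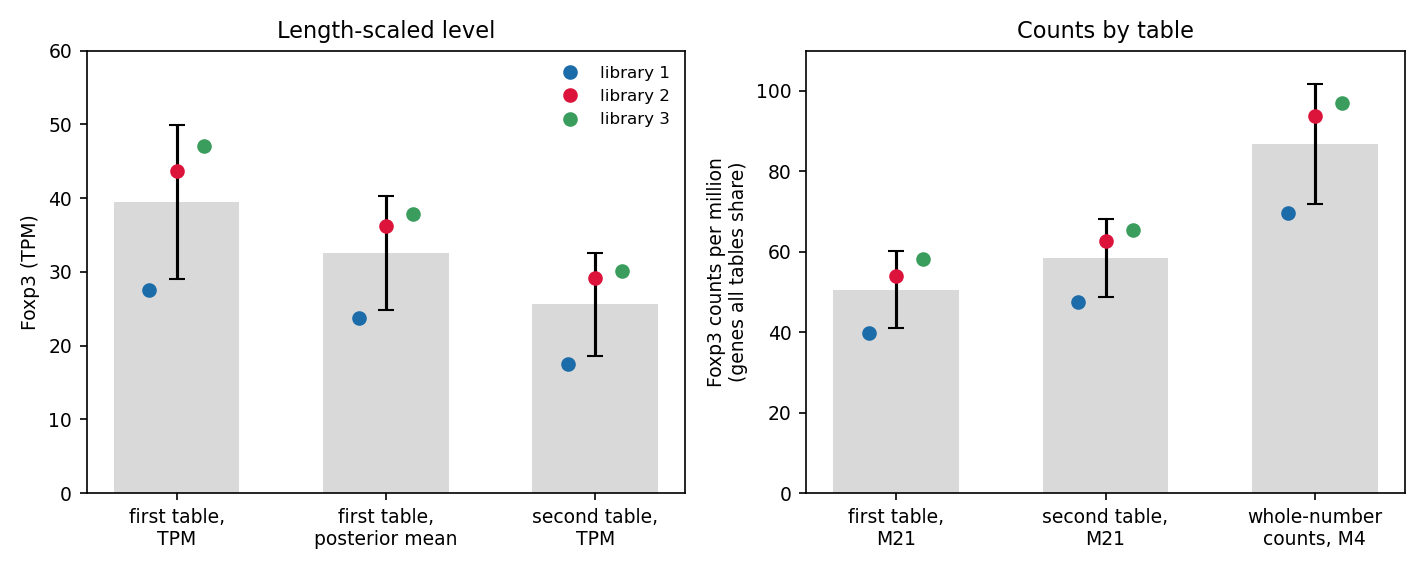
Foxp3 level in each library by table, as TPM (left) and as CPM over the genes that all tables share (right). Bars are means, whiskers the SD of 3 libraries and points the libraries, and library 1 is lowest in each set.

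Whole-number counts on the older GENCODE M4 annotation were 668, 877 and 840. Over 22195 shared genes, Foxp3 had 1.75, 1.74 and 1.67 times the CPM of the expected counts, a mean of 1.72 ± 0.045. The median of 10091 genes at 1 CPM or more in both tables was 1.09, and 8.88% of them had a higher ratio than Foxp3. A ratio above 1.5 in every library was reached by Foxp3 and by 17.9% of these genes. The M4 counts also differed among libraries, by the same chi-square test with Benjamini-Hochberg adjustment (adjusted p = 1.53e-06, where 63.8% of genes were called). Why the tables differ was not tested.

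The transcripts divided the gene unequally. Foxp3-207, annotated as a target of nonsense-mediated decay, had 20.8, 28.6 and 31.5 TPM and led in every library. Its share of the TPM of the gene was 75.3%, 65.5% and 66.9% (69.2% ± 5.34), from 232, 271 and 270 expected counts. Foxp3-206, which holds the whole coding sequence of 429 codons, had 5.37, 10.01 and 10.9 TPM and 19.5%, 22.9% and 23.2% (21.9% ± 2.09). Foxp3-210, with the whole coding sequence and the same ends as Foxp3-207, had 3.23%, 10.7% and 9.93% (7.94% ± 4.09). The ranges of these 3 shares over the libraries did not overlap, and none of the other 7 exceeded 1.95% in any library. Their deposited TPM intervals separated less. Foxp3-206 had 1.40 to 4.91, 4.01 to 8.91 and 4.86 to 9.37. Foxp3-210 had upper bounds of 3.11, 6.11 and 6.185 and lower bounds of at most 1.13e-04, so these 2 overlapped in each library. Foxp3-207 lay above both, at 13.9 to 19.3, 19.0 to 26.3 and 20.6 to 28.1. The deposited TPM of Foxp3-206 and Foxp3-207 exceeded its upper bound in each library. The difference in share between libraries was not tested.

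**Figure D2:**
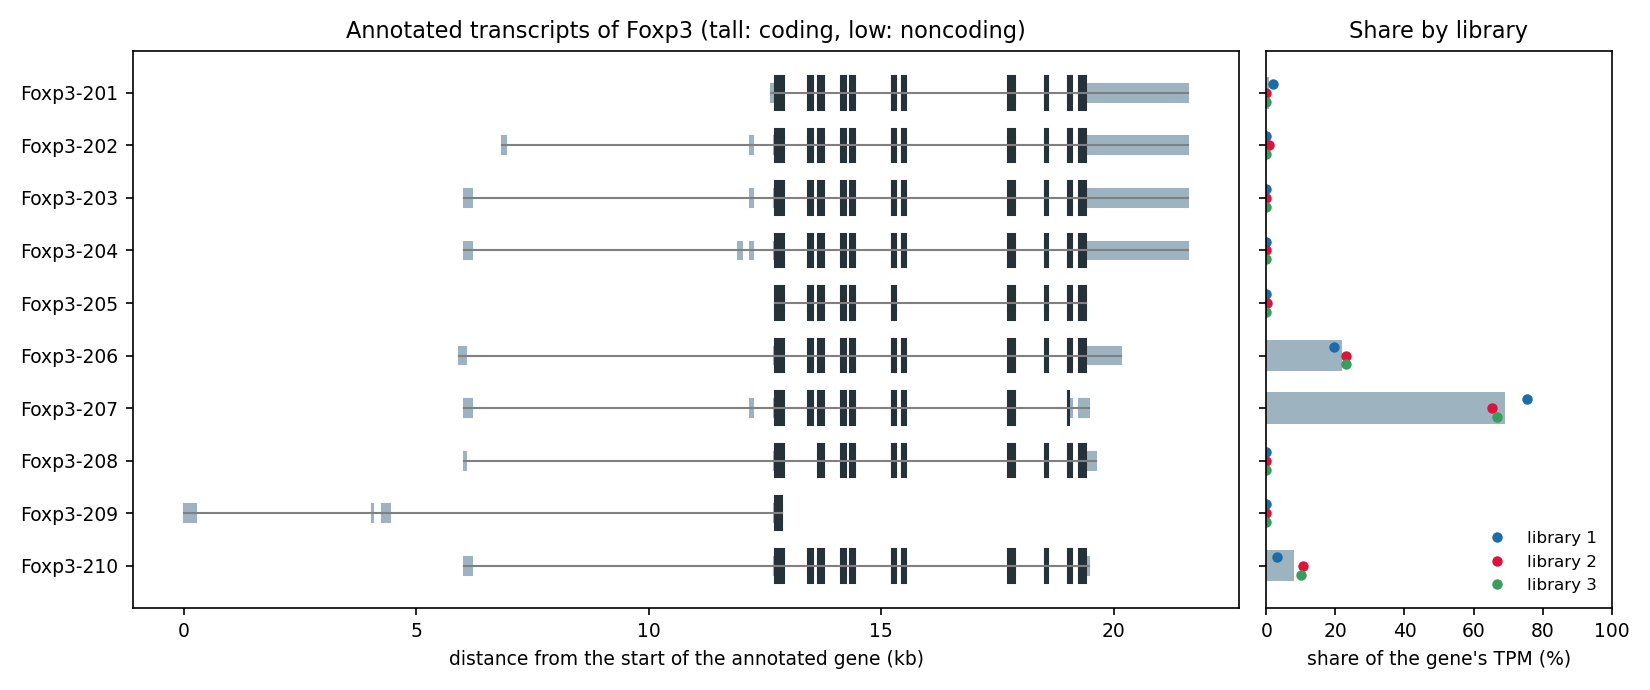
The 10 annotated transcripts of Foxp3 drawn by distance from the start of the gene in kilobases, with coding exons tall and noncoding exons low, beside the share of the gene's TPM in each library (points) and its mean (bars). Foxp3-207 holds the most, between 65.5% and 75.3%, and the 4 transcripts with the longest 3′ end hold almost none.

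Foxp3-207 runs from 7579669 to 7593105 and is 1557 bases long. It has the 83-base noncoding exon at 7585812 to 7585894, lacks the 77-base exon, and reads 335 codons before its stop in exon 11 of 12, 61 bases before the last junction. In the second table its share was 68.6%, 62.9% and 71.1% (67.5% ± 4.22), and by posterior mean it was 65.5% ± 3.91. An annotated decay transcript led 3.10% of 9391 detected protein-coding genes with 2 or more transcripts in the first table, and 2.43% in both tables. Among the 3119 of them that have such a transcript, 9.33% were led by it.

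The transcripts with the whole coding sequence together held 24.7%, 34.2% and 33.1% of the TPM of the gene (30.7% ± 5.25), against 19.8% ± 0.331 in the second table. Those with the 77-base exon held 30.8% ± 5.33 in the first table and 32.5% ± 4.22 in the second. Those with the 83-base exon held 69.4% ± 5.11 and 68.2% ± 3.91. No annotated transcript combines the 83-base exon, the 77-base exon and a short 3′ end, so a molecule of that build could be assigned only to another. Whether such molecules were present was not tested.

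The 2 tables disagreed most on Foxp3-205 and Foxp3-210. Foxp3-205 lacks the 81-base exon of the leucine zipper region and codes for 402 codons. It had 0%, 0.26% and 0% of the TPM in the first table and 8.97%, 17.3% and 8.74% in the second. Foxp3-208 lacks the 105-base exon that follows the first coding exon, as the human isoform without exon 2 does, and codes for 394 codons. It was listed at 0 in all 3 libraries of the first table and at 2.97% in library 1 of the second. Foxp3-210 went the other way, at 3.46% in library 3 of the second table and near 0 in libraries 1 and 2. The shares of Foxp3-206 (17.8% ± 1.44 in the second table) and Foxp3-205 overlapped in range there, while Foxp3-207 stood above both.

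**Figure D3:**
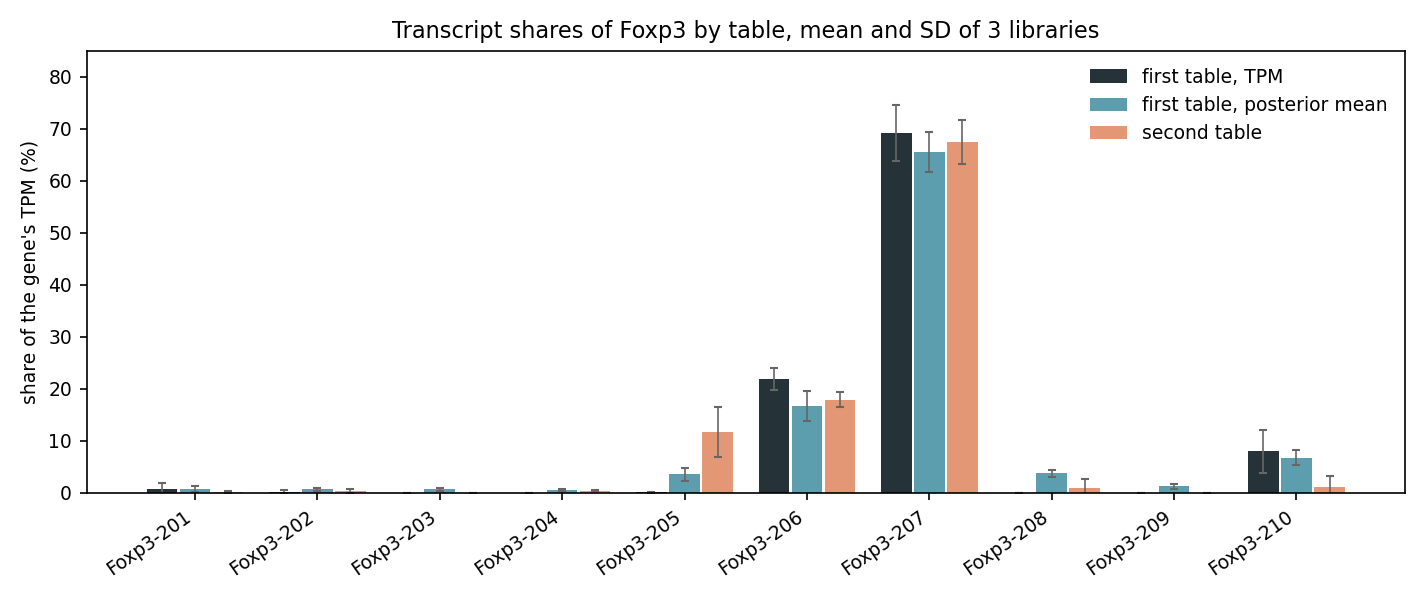
Share of the Foxp3 TPM per annotated transcript in the 2 quantifications and in the posterior means of the first, as the mean and SD of 3 libraries. Foxp3-207 and Foxp3-206 rank first and second in each, and Foxp3-205 and Foxp3-210 trade places between tables.

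The ends of the transcripts showed 1 further contrast. Foxp3-201 to Foxp3-204 share a last exon that reaches 7595234 or beyond. They held 1.96%, 0.66% and 0% of the TPM of the gene, from 14.7, 6.96 and 0 expected counts, with 4.01%, 1.96% and 1.64% by posterior mean and 0.809% ± 0.289 in the second table. The labels do not say whether the Foxp3CreERT2 allele alters the 3′ end of the gene, and its part in these shares was not tested. Past the stop codon of the whole coding sequence, at 7593041 to 7593043, the last exon continues 2191 bases in Foxp3-203, against 756 bases in Foxp3-206 and 62 in Foxp3-207 and Foxp3-210. Of the length of Foxp3-203, 38.1% lies beyond the end of Foxp3-206. The transcripts with GENCODE support level 1 (Foxp3-202, Foxp3-203 and Foxp3-204) held 0.222% of the TPM, while the median of detected genes with such transcripts was 79.2%. Foxp3-205 to Foxp3-210 carry the GENCODE tag not_organism_supported and held 99.1% ± 0.997. Among 1536 detected genes with such transcripts, 6.12% had 50% or more of their TPM on them. None of the 10 transcripts has AATAAA or ATTAAA in its last 50 bases.

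By start site, transcripts from the main promoter held 99.0% ± 0.981 of the TPM, and 87.9% ± 5.17 in the second table. Foxp3-209, the transcript from the upstream start at 7573644, was listed at 0 in every library of both tables. Foxp3-202, from the downstream start at 7580483, had 0%, 0.66% and 0%. Foxp3-201 and Foxp3-205, which have no noncoding exon ahead of the one with the start codon, held 0.737% ± 1.07 in the first table and 11.8% ± 4.83 in the second.

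Neighbouring genes overlap Foxp3. All 280 bases of its first exons at the main promoter also lie in exons of Flicr, a noncoding RNA known to restrain Foxp3, on the same strand. Of the 1446 bases of long 3′ end beyond Foxp3-206, 590 lie under exons of Ccdc22, an endosomal sorting gene on the opposite strand. Strand cannot separate reads of Foxp3 and Flicr there. For Ccdc22 it could, but the sources used here do not give whether strand was used in counting. Flicr had 8.77, 7.23 and 9.45 TPM and Ccdc22 17.9, 21.6 and 20.8 TPM. Neither passed the chi-square test with Benjamini-Hochberg adjustment (adjusted p = 0.913 and 0.788). Gm36995, which shares 373 bases, was at 0.49, 1.84 and 2.29 TPM, lowest in library 1 like Foxp3 (adjusted p = 1.85e-07). Ppp1r3f, a subunit of protein phosphatase 1 that shares 266 bases, was at 11.7, 2.68 and 8.98 TPM. Its scaled counts of 13.4, 7.99 and 7.96 were highest in library 1 (chi-square test, adjusted p = 4.84e-04). Its M4 counts of 157, 129 and 175 were instead highest in library 3, so its order depends on the table. Syp, within 50 kb, had 6.27 ± 0.902 TPM. Cacna1f had 0, 0.23 and 0 TPM, and Gm14394, Gm14395 and Gm23082 were listed at 0.

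Of its family Foxp3 was the second in level. Foxp1, which T cells use to stay quiescent and which pairs with Foxp3, had 236 ± 44.2 TPM, and its lowest library, at 186, lay above the highest of Foxp3. Foxp4 had 1.94 ± 0.275 TPM. Foxp2 had 0.147 ± 0.0603 TPM, from 3, 8 and 3 expected counts, and did not reach the detection limit. The second table gave it more, at 33.7, 51.54 and 33.15 estimated counts. No 2 neighbours in this order overlapped among libraries.

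Genes that act on the Foxp3 locus were nearly all present. Of 24 regulators, 23 were detected, with a median of 25.9 TPM, while 45.9% of protein-coding genes were detected. Ets1, which binds the demethylated enhancer, had 512, 804 and 831 TPM, the highest of the list, with library 1 low. Gata3 had 113 ± 13.9, the orphan receptor Nr4a1 81.6 ± 17.5 and Nfatc1 73.6 ± 13.3 TPM. Lowest were Nr4a2 at 2.06 ± 0.683 and Nr4a3 at 1.26 ± 0.499 TPM. The maintenance methyltransferase Dnmt1 had 26.1, 59.4 and 62.6 TPM, the largest library ratio among members of 300 or more counts.

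By the chi-square test with Benjamini-Hochberg adjustment, 16 of the 24 regulators differed among libraries, against 54.3% of all genes. Called and lowest in library 1, as Foxp3 was, were 15 of the 24 (62.5%), against 24.0% of all genes tested. With scaling within bins of gene length the 15 became 6 of the 24, against 18.4% of all genes tested. Foxp3 remained lowest in library 1 under that scaling, at 0.750 and 0.679 times libraries 2 and 3 (chi-square test, adjusted p = 1.48e-06, with 45.0% of genes called). Of the 24, 7 had a higher mean TPM than Foxp3. This share is near that of all detected protein-coding genes, of which 67.8% lay below Foxp3.

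All 24 protein partners were detected, against 45.9% of protein-coding genes. Their median was 27.9 TPM, against 20.1 for the detected protein-coding genes. Ikzf2 led at 396, 466 and 412 TPM, followed by Foxp1, Gata3 and Ikzf4, the Ikaros factor Eos, at 71.8, 125 and 110 TPM. Zfp90 at 3.85 ± 0.839 and the deacetylase Hdac9 at 2.43 ± 0.144 TPM were lowest. Irf4, a factor of effector regulatory T cells, had 8.88, 17.8 and 15.1 TPM and the largest library ratio among members of 300 or more counts. The chi-square test called 16 of the 24, against 54.3% of all genes. Called and lowest in library 1 were 10 of the 24 (41.7%), against 24.0% of all genes tested. With scaling within bins of gene length the 10 became 5 (20.8%), near the 18.4% of all genes.

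Genes that Foxp3 is known to raise stood well above it. All 16 were detected, against 45.9% of protein-coding genes, and their median was 207 TPM. Of the 16, 14 had a higher mean TPM than Foxp3, while 67.8% of the detected protein-coding genes lay below it. Izumo1r, the folate receptor 4 gene, had 1313 ± 122.9 TPM. Tnfrsf4 (OX40) had 1074 ± 45.8, Tnfrsf18 (GITR) 688 ± 62.8, and Capg 595 ± 39.8 TPM. The inhibitory receptor Ctla4 had 210, 230 and 210 TPM. Il2ra had 211, 332 and 369 TPM, again lowest in library 1. The ectonucleotidase Entpd1 (34.4 ± 3.50 TPM) and the secreted Fgl2 (14.8 ± 1.56 TPM) were the 2 below Foxp3. The spread across libraries was not shared: Tigit, an inhibitory receptor with the largest library ratio among members of 300 or more counts, had 408, 357 and 263 TPM, highest in library 1. By the chi-square test 14 of the 16 differed, against 54.3% of all genes. Called and lowest in library 1 were 6 of the 16 (37.5%), against 24.0% of all genes tested.

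Of 12 genes that Foxp3 is known to hold down, 9 were detected, against 45.9% of protein-coding genes. Above Foxp3 in mean TPM were 3 of the 12. The median of the 12 was 15.9 TPM, against 20.1 for detected and 0.72 for all protein-coding genes. Il2 had 0.53, 0.47 and 0.69 TPM, from only 4.14, 3.12 and 4.13 expected counts. The second table gave it 0, 1.08 and 0 estimated counts, and the M4 counts were 0, 1 and 0. Il17a was listed at 0 in every library, where a count of 0 allows up to 3 counts per library. Low as well were the cytokine genes Ifng at 6.36 ± 1.92 and Il4 at 3.12 ± 0.350 TPM, and the phosphodiesterase Pde3b at 1.20 ± 0.757 TPM. These 3 were named after their values were seen. The 4 highest members were of other kinds. Ptpn22, a phosphatase that dampens T cell receptor signals, had 310 ± 58.7 TPM, the kinase Zap70 196 ± 28.1, the interleukin-7 receptor Il7r 177 ± 47.0 and the chromatin organiser Satb1 38.9 ± 12.2 TPM. Igfbp4, with the largest library ratio among members of 300 or more counts, had 4.78, 9.91 and 15.3 TPM. Of the 9 with 30 or more counts, the chi-square test called 7, against 54.3% of all genes. Called with their lowest value in library 1 were 3 of the 9 (33.3%), against 24.0%. With scaling within bins of gene length the 3 became 2 (22.2%), against 18.4%. No cell type without Foxp3 was sequenced, so whether any of these was raised or lowered by Foxp3 cannot be told apart from its level in T cells in general.

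**Figure D4:**
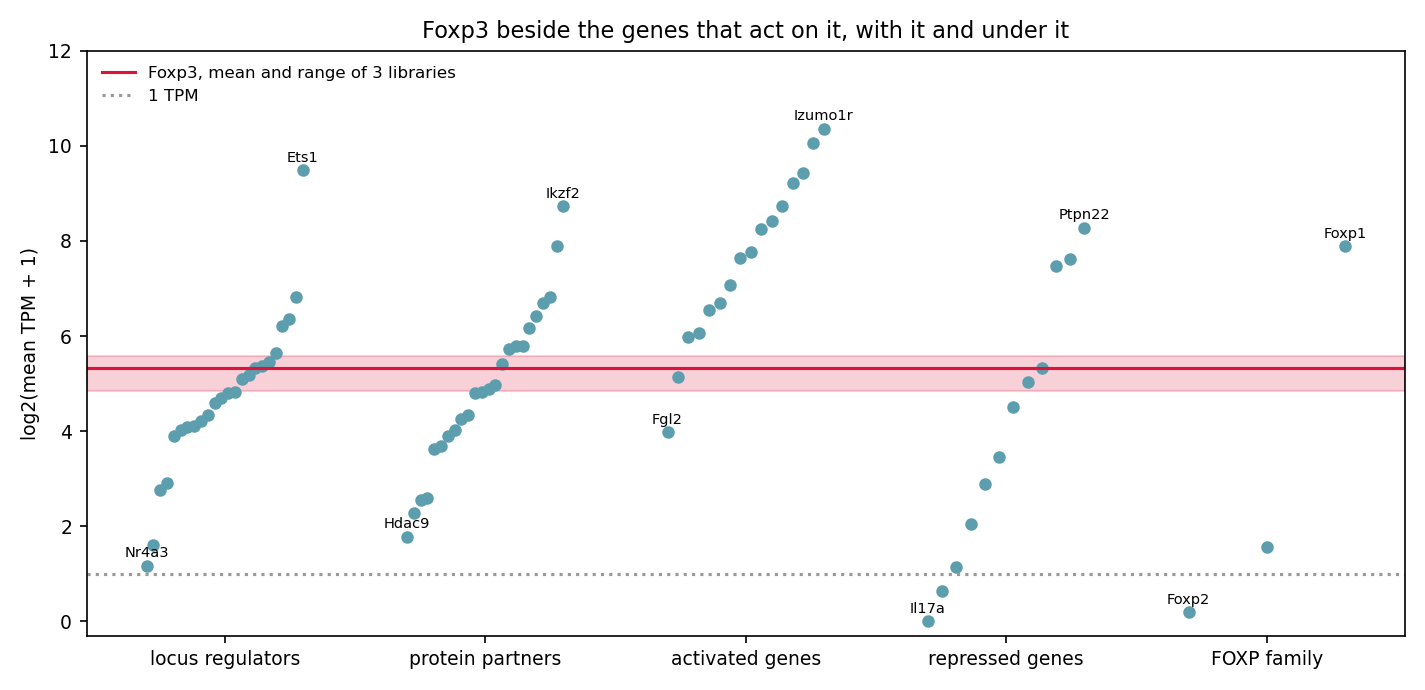
Mean TPM over 3 libraries of each gene in the lists, as log2(mean TPM + 1), with the Foxp3 mean (line) and range (band) and the 1 TPM limit (dotted); the highest and lowest gene of each list are named. Most activated genes lie above the Foxp3 band, and most other genes lie below or within it.

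**Figure D5:**
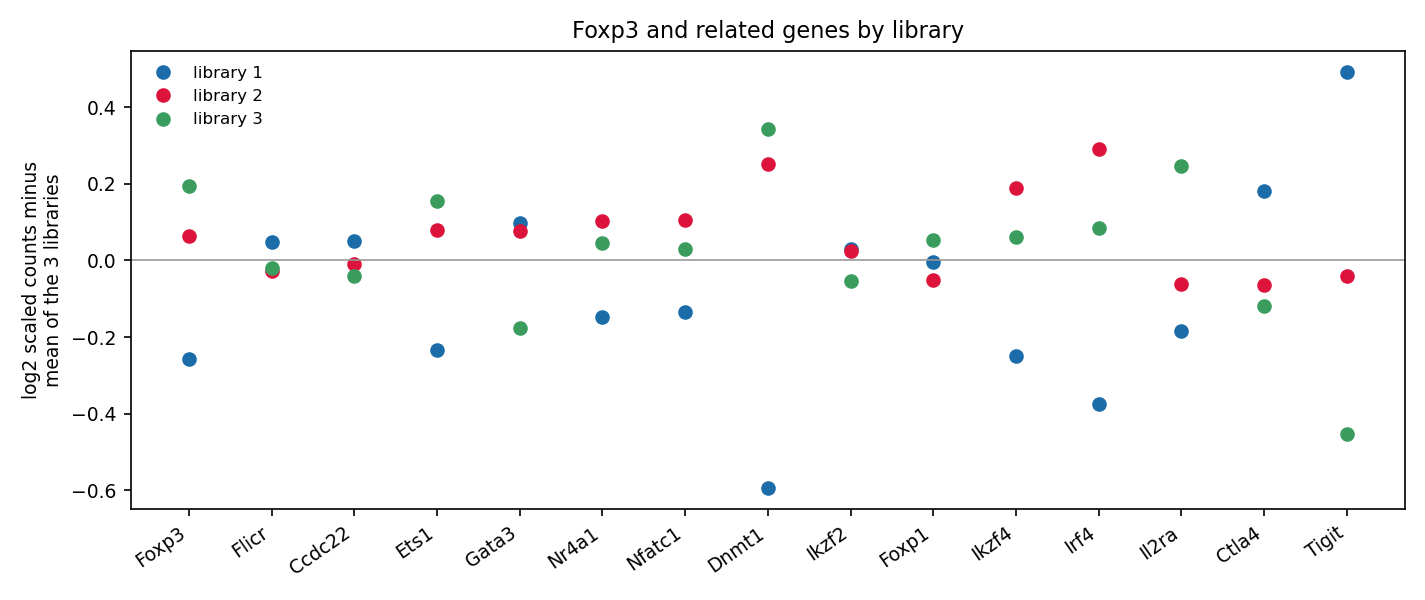
Scaled counts of Foxp3 and of a selection of the genes named by rule in each library, as log2 difference from the gene's own mean. Foxp3, Ets1, Nr4a1, Nfatc1, Dnmt1, Ikzf4, Irf4 and Il2ra are lowest in library 1. Tigit, Ctla4, Gata3, Ikzf2, Ccdc22 and Flicr are highest there, and Foxp1 is lowest in library 2.

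The genes whose scaled counts followed Foxp3 most closely over the 3 libraries, by Euclidean distance of centred log2 values among 4777 protein-coding genes with 1000 or more counts, were Usp40, Usp8, Tox4, Ttc39b and Zfp740. Usp40, the nearest, had scaled counts of 35.2, 44.1 and 48.5. The 5 distances ran from 0.00604 to 0.0122. Those nearest in log2 TPM were Jmjd1c (27.2, 45.2 and 46.8 TPM), Foxred1, Naa25, Pik3ip1 and Mroh1. With 3 libraries, such likeness is a description.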

How the data were processed

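The authors deposited 4 tables per library, all on mm10. The gene and transcript tables hold expected counts, TPM, FPKM (not used here beyond a check) and, per transcript, the percent of the gene's TPM, made from a transcriptome alignment and GENCODE M21, per the deposited readme and the file headers. Bounds of TPM intervals were deposited as a score with no stated level. A further transcript table holds the authors' estimated counts and TPM from reads and an index, and the remaining table holds whole-number counts on M4, per the deposited readme. Column names are those RSEM and kallisto write; the sources used here do not give tool names, versions or strand use.

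Rows that name no gene held 0.117%, 0.124% and 0.135% of the counts and were left out. Expected counts were rounded. Genes with 30 or more counts were tested by a chi-square test of homogeneity against TMM-scaled totals (edgeR 4.0.16, R 4.3.3) with Benjamini-Hochberg adjustment at 0.05; pairs of libraries by an exact two-sided binomial test. Scaling by length used 10 bins. Python 3.11.15 with numpy 2.4.6, scipy 1.17.1, pandas 2.3.3 and matplotlib 3.10.9 was used. The count test was tested on simulated data.

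The rule for named genes took Foxp3 and its transcripts, genes within 50 kb, the FOXP family, and of each list the 4 highest and 2 lowest in mean TPM and the largest library ratio among genes of 300 or more counts, with Il2ra, Ctla4, Ikzf2, Ikzf4 and Il2 and the nearest genes by pattern and level. The members and lists were chosen with earlier results of these data known. Library totals of 8284381 to 9299054 expected counts set the precision of the counts. The labels do not say whether the libraries came from separate cells. The alternatives tried were other scalings, tables, minimum counts and detection limits and leaving out each library. A marker of the erythroid list is not reported here and was left out of its sum.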

Additional observations from a re-analysis of the deposited data

How the results depend on the processing

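Of 82 alternative values, 74 were scored as unchanged, by a rule for each kind of result. Tests and ratios had to keep their direction and their side of the threshold. Levels, shares and the ratio between tables could move by no more than the SD between libraries. Leaving out 1 of 3 libraries cannot move such a mean by more than that SD. Those alternatives were therefore bound to score as unchanged. The Foxp3 level of 47.3 CPM was also scored as unchanged against 39.4 TPM, although the units differ. These scores are among the 74 and say nothing on stability. Counts of list members could change by no more than 1.5-fold. At 5 TPM in place of 1, the repressed genes detected went from 9 to 6, which is at that limit. For the Foxp3 difference among libraries, the adjusted p ran from 3.67e-05 to 0.375 when 1 library was left out (chi-square test with Benjamini-Hochberg adjustment), and the value of 0.375 was without library 1; the cause was not tested. With other scalings, tables and minimum counts the adjusted p stayed between 7.63e-07 and 0.0044. The Foxp3 level was 25.6 TPM in the second table, against 39.4, and the cause was not tested. An alternative added after seeing the data, with all counts set to the effective length of Foxp3-203, gave 16.97 TPM, since a longer transcript lowers TPM by construction. The share of Foxp3-207 was 61.9% of expected counts and, in another alternative added after seeing the data, 63.1% of the estimated counts of the second table, against 69.2% of TPM; a share of counts is not scaled by length. Over all genes of each table in place of shared genes, the M4 ratio was 1.84 against 1.72. Scaling within bins of gene length, applied to the lists after seeing the data, took the members called and lowest in library 1 from 15 to 6 for the locus regulators and from 10 to 5 for the partners. For the activated genes it took them from 6 to 4, and for the repressed genes from 3 to 2. Over all genes tested, the same scaling took the share called and lowest in library 1 from 24.0% to 18.4%. No paired analysis was possible because all libraries belong to 1 group. The long-ended transcripts rest on at most 14.7 expected counts in a library, and on at most 17.8 in the second table.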
